A study of Mus musculus with 19 samples.

Results

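Prm1, Prm2 and Prm3, the protamine genes, and Tnp1 and Tnp2, the transition protein genes, are normally active in maturing male germ cells, and their levels were examined here in embryonic mouse cortex. All 5 symbols were found among the 47643 genes of a TPM table (read levels scaled for gene length and to a fixed total in each library) that spans 19 RNA-seq libraries of mouse cortex at E14.5, in the middle of cortical neurogenesis. The mutants carried GFAP::Cre; SmoM2: Cre recombinase under a GFAP promoter, which in embryonic cortex is active in radial glia, and SmoM2, an always active form of the Hedgehog pathway protein Smoothened. The controls were wildtype, per the series' design text. The groups were 6 control dorsal (numbers 1 to 6 in the titles), 4 mutant dorsal (1 to 4), 5 control medial (2 to 6) and 4 mutant medial libraries (1 to 4). The tissue labels name dorsal and medial cortex, whereas the extraction protocol speaks of medial or lateral cortices. The sources used here do not describe the Cre construct, the Cre line or what activates SmoM2, and they do not state whether the libraries within a group are from different animals. The p-values below therefore rest on library-to-library spread, which may be technical. The 5 genes were chosen by the mutant and control levels of Prm1 in these same libraries, the other 4 being its functional relatives. The mutant against control values of Prm1 are therefore given as a description, without a test.

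Protamines replace histones on DNA in the sperm head, and transition proteins occupy the DNA briefly between the loss of histones and the arrival of protamines. In mouse, Prm1 and Prm2 encode the arginine-rich packaging proteins of sperm, Prm3 a small acidic protein encoded between Prm2 and Tnp2, and Tnp1 and Tnp2 the transition proteins. A fragment of mouse Prm1 that includes its intron and its polyadenylation signal has also been used as the 3′ end of a number of transgenes, Cre transgenes among them. All mutant libraries carried both GFAP::Cre and SmoM2, and by the design text the controls carried neither. What goes with the Cre transgene and what goes with the active Smoothened can therefore not be told apart. A gene-level TPM value does not separate reads of the native Prm1 gene from reads of Prm1 sequence elsewhere in the genome, and which of them gave the values below was not tested.

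Prm1 (ENSMUSG00000022501.6) lies on the minus strand of chromosome 16 at 10796326 to 10805839 on GRCm38, the assembly also known as mm10, by the GENCODE M21 annotation. The shorter of its 2 annotated transcripts by genomic span has 2 exons, 10796626 to 10796886 and 10796326 to 10796533, parted by an intron of 92 bases. The longer one shares the last exon and part of the other and adds a first exon at 10805738 to 10805839. The coding bases, the same in both transcripts, are shown here because they are the sequence that sets Prm1 apart from its relatives. Bases are 5′ to 3′ on the coding strand (GRCm38, stop codon left out), with arginine codons in capitals. The Tnp1 coding bases (chromosome 1, 73015300 to 73015863, minus strand) follow for comparison.
Prm1: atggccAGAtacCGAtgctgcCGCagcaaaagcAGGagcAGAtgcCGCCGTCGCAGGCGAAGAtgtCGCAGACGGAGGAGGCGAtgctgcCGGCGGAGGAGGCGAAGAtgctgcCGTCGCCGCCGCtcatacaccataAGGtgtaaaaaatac
Tnp1: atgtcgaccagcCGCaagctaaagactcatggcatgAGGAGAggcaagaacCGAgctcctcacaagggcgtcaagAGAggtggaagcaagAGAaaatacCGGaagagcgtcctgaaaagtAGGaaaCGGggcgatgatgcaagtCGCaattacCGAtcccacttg

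Of the 51 Prm1 codons, 28 (54.9%) encode arginine. The share was 35.5% of 107 codons in Prm2, 20% of 55 in Tnp1, 13.7% of 117 in Tnp2 and 1.98% of 101 in Prm3. None of the 540 different 31-base words of the Prm1 transcripts occurred, on either strand, in a transcript of another gene among the 141767 transcripts of the annotation. Prm2 and Tnp2 likewise shared none, while Prm3 shared 13 of 380 words and Tnp1 11 of 407 with other genes.

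In the promoter windows of RefSeq (GRCm38.p6, 250 bases before to 50 after the gene start), the letters TGANNTCA, which resemble the cyclic AMP response element and read the same on both strands, occurred in Prm1, Prm3 and Tnp1 and not in Prm2 or Tnp2. They occurred in 14.1% of all 32851 windows of the same length. A match describes the letters only. The windows of 30 bases around them are shown because they are a feature that Prm1 shares with members that were not detected, with the match in capitals, 5′ to 3′ on the minus strand (Prm1, chromosome 16, 10796869 to 10796898; Prm3, chromosome 16, 10790956 to 10790985; Tnp1, chromosome 1, 73015975 to 73016004).
Prm1: ctggtcctcttTGACTTCAtaattcctagg
Prm3: tggagcctttgTGAGGTCAgtgccacaccc
Tnp1: gcaaaggttagTGATGTCAcaagagagctg

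Each column summed to 1000000 TPM, which hides how deeply it was sequenced. Genes above 0 numbered 17357 to 18670, and replicates of a group correlated across genes with Pearson's r from 0.975 to 0.993. All 11 genes that define dorsal telencephalon, Emx1 and Tbr1 among them, passed the filter of at least 1 TPM in at least 4 libraries. The genotype labels were matched by Gli1, a Hedgehog-induced transcription factor gene, which lay between 0.20 and 1.08 TPM in the 11 control libraries and between 24.3 and 48.1 TPM in the 8 mutant libraries. Xist and Ddx3y, genes that tell the sexes apart, marked control numbers 2, 3 and 4 as female and control numbers 1, 5 and 6 and all 4 mutant numbers as male.

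Prm1 was near 0 in control cortex and among the abundant transcripts in mutant cortex. In the control dorsal libraries it was listed at 0.393 TPM in number 1, at 0.603 TPM in number 3 and at 0 in numbers 2, 4, 5 and 6. The mutant dorsal libraries had 132 TPM in number 1, 160 TPM in number 2, 385 TPM in number 3 and 251 TPM in number 4. Every mutant dorsal library thus lay above every control dorsal library, with nothing between 0.603 and 132 TPM.

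In the control medial libraries Prm1 was listed at 0.223 TPM in number 2, at 0.182 TPM in number 3, at 0.506 TPM in number 5 and at 0 in numbers 4 and 6. The mutant medial libraries had 160 TPM in number 1, 217 TPM in number 2, 540 TPM in number 3 and 311 TPM in number 4. The medial groups did not overlap either. The lowest mutant library of all was 219-fold above the highest control library of all. The means were 0.166 ± 0.266 (SD, n = 6) in control dorsal, 232 ± 114 (n = 4) in mutant dorsal, 0.182 ± 0.208 (n = 5) in control medial and 307 ± 167 (n = 4) in mutant medial libraries. On the log2(TPM + 1) scale, which understates the change of a gene that starts near 0, the difference was 7.55 ± 0.30 (SE) dorsally and 7.89 ± 0.31 medially in limma. Each SE rests on 1 spread shared by all groups. The controls near 0 lower that spread, so it understates the one between mutant libraries.

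**Figure D1:**
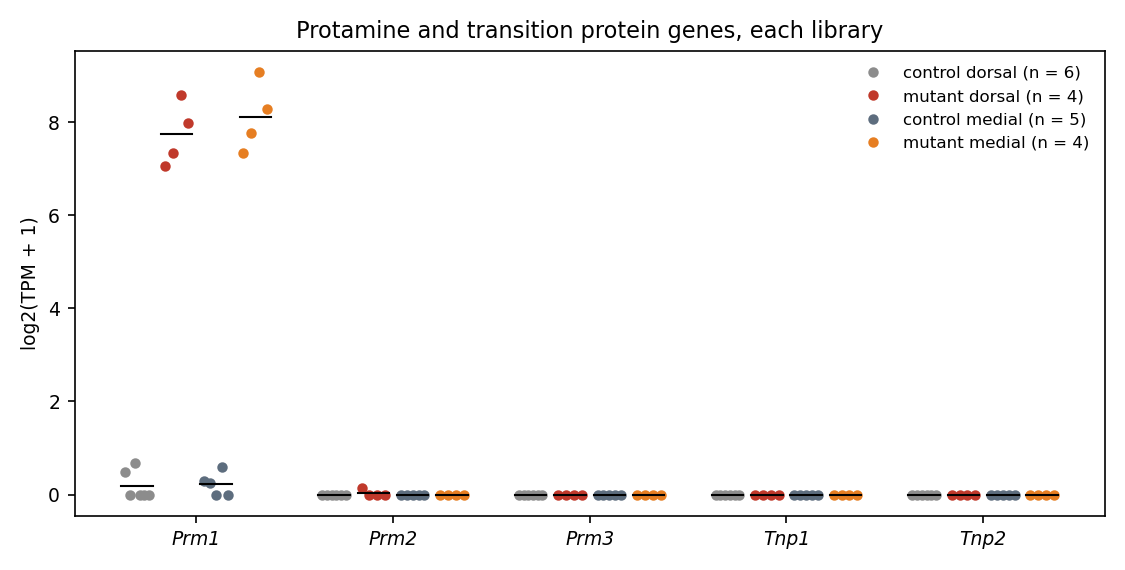
Level of the 5 genes in each of the 19 libraries, as log2(TPM + 1), with points for libraries coloured by group and bars for group means. Prm1 is high in all 8 mutant libraries (132 to 540 TPM) and at most 0.603 TPM in the controls, while the other 4 genes lie at or next to 0 throughout.

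The other 4 members stayed at or next to 0 in the same libraries. Prm2, the second protamine gene (chromosome 16, 10791380 to 10796134), was listed at 0.0945 TPM in mutant dorsal number 1 and at 0 in the other 18 libraries. Prm3 (chromosome 16, 10790505 to 10790914), Tnp2 (chromosome 16, 10787936 to 10788660) and Tnp1 (chromosome 1, 73015074 to 73015909) were listed at 0 in all 19 libraries. Only Prm1 passed the filter on low values, and it did so through the mutant libraries alone. Prm2, the nearest member, lies 0.2 kb from Prm1 on the same strand. Prm1 itself was above 0 in 5 of the 11 control libraries, in which the other 4 members were at 0 throughout. The 5 controls above 0 were of both sexes, and with male embryos only the difference in Prm1 was 7.58 dorsally and 7.82 medially.

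Prm1 varied more between mutant numbers than most genes of like abundance did. By rank among all genes of a library, Prm1 stood at place 1272 in mutant dorsal number 1, 1014 in number 2, 379 in number 3 and 611 in number 4. In the medial libraries the places were 989, 700, 249 and 477 for numbers 1 to 4. Number 3 had the most and number 1 the least in both regions, a ratio of 2.91 dorsally and 3.37 medially. The SD of Prm1 was 49% of its mean in mutant dorsal and 54.4% in mutant medial libraries. For comparison, the 1392 genes with group means from 100 to 600 TPM in both mutant groups had a median SD of 5.66% and 5.59% of their means. Besides Prm1, 12 of these genes had an SD at least as large relative to the mean in both regions. Without number 3 the means of Prm1 were 181 ± 61.9 TPM dorsally and 230 ± 76.2 TPM medially (SD, n = 3).

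Dorsal and medial libraries with the same number gave the same order of Prm1 levels, with number 3 above 4, 4 above 2 and 2 above 1. Dorsal and medial libraries of one genotype and number deviated together across genes (r from 0.549 to 0.795 in 9 pairs), so a number is treated as an embryo, a pairing that comes from the data and not from the labels. Of 8297 genes with at least 10 TPM in every mutant library, 218 (2.63%) had this order in both regions. At least 2-fold differences between the 4 embryos in both regions were seen for 59 of the 8297 genes. The order 3, 4, 2, 1 was taken from Prm1, itself among these 59, and no other gene of the 59 had it in both regions. With 2.63% of the 8297 genes in this order, so small a set may hold no other by chance, and nothing is concluded from it. This count was made after the values of Prm1 were seen.

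Within each mutant embryo Prm1 was higher in medial than in dorsal cortex. The medial level was 1.21 times the dorsal one in number 1, 1.35 times in number 2, 1.40 times in number 3 and 1.24 times in number 4. This step between regions, 0.28 to 0.49 on the log2 scale, was small beside the range between embryos of 1.53 dorsally and 1.75 medially. In the fit that treats libraries as independent, the medial minus dorsal difference in mutants was 0.38 ± 0.33 (SE) with an adjusted p of 0.469 in limma, where 18.8% of 13520 tested genes passed. With the embryo as a random block it was 0.38 ± 0.20 with an adjusted p of 0.151, where 39.1% passed. An exact two-sided permutation of signs over the 4 embryos gave p = 0.125, the smallest it can give with 4 pairs, with 4 of 4 embryos higher medially. Neither limma fit passed at 0.05, and the exact test could not have done so with 4 pairs. The differences within embryos had a mean of 0.38 and an SD of 0.10 (n = 4). The SE of the first fit includes the spread between embryos. The block fit applied 1 correlation within embryos, 0.515, to all genes, whatever that of Prm1. These SEs therefore do not measure the spread of the step within embryos. The control values, 0 to 0.603 TPM, are too low for a comparison of regions.

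**Figure D2:**
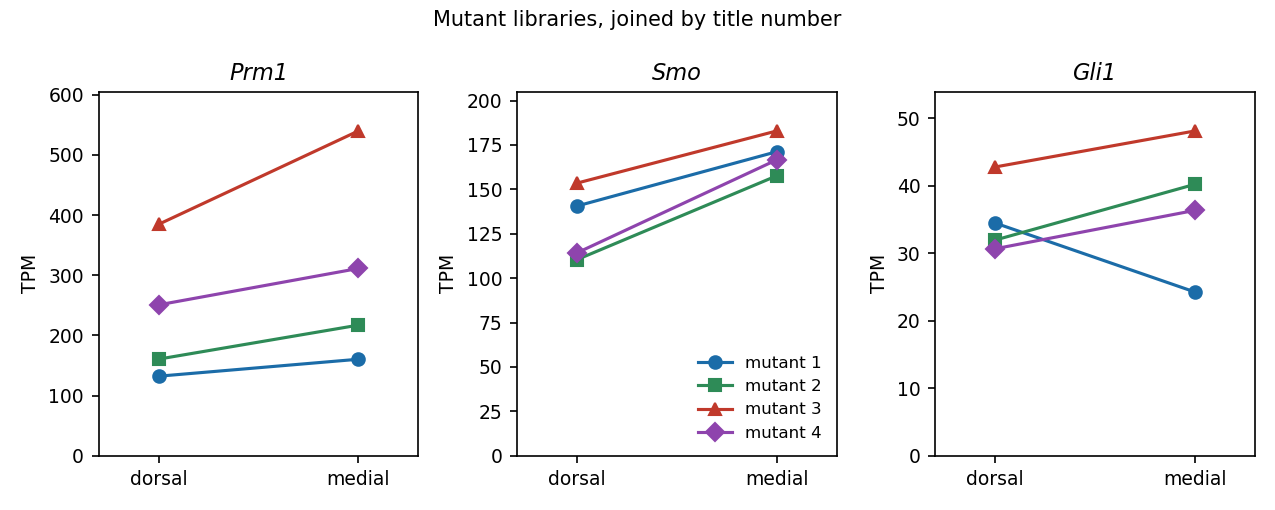
Level in TPM of Prm1, Smo and Gli1 in the dorsal and medial library of each mutant number, joined by lines; each axis starts at 0. Prm1 keeps the order 3, 4, 2, 1 in both regions, while Smo and Gli1 are ordered otherwise. Prm1 and Smo both rise from dorsal to medial in all 4 numbers, and Gli1 does in numbers 2, 3 and 4.

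Smo, which encodes Smoothened, and Gfap, the mouse gene that shares the name of the promoter in GFAP::Cre, were set beside Prm1 because the mutant genotype names them. Smo had 73.4 to 91.5 TPM in control dorsal libraries (median 85.1), and 141, 110, 154 and 114 TPM in mutant dorsal libraries 1 to 4. The groups did not overlap, and Smo rose by 0.61 ± 0.09 (adjusted p = 4.12e-05 in limma). In medial cortex the controls had 134, 134, 107, 119 and 117 TPM (numbers 2 to 6) and the mutants 171, 158, 183 and 167 TPM (numbers 1 to 4), again without overlap, with an increase of 0.47 ± 0.09 (adjusted p = 0.000617). Within all 4 mutant numbers Smo, like Prm1, was higher medially than dorsally. The medial minus dorsal difference of Smo was 0.40 ± 0.10 in mutants (adjusted p = 0.00967 in limma) and 0.54 ± 0.08 in controls (adjusted p = 0.000173). The gene-level value does not separate native Smo from SmoM2.

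In TPM, which is per length, Prm1 and Smo were of like size in mutant cortex but did not keep a fixed ratio. The Prm1 level was 0.939 times that of Smo in mutant dorsal number 1, 1.45 times in number 2, 2.50 times in number 3 and 2.19 times in number 4. In the medial libraries of the same numbers it was 0.937, 1.38, 2.95 and 1.87 times. The ratio thus differed more between embryos than between the regions of an embryo. The SD of Smo was 16% of its mean in mutant dorsal and 6.22% in mutant medial libraries, and that of Gli1 was 15.6% and 26.7%. Number 3 had the highest level of all 3 genes in both regions, while number 1, the lowest for Prm1, had the second highest Smo in both.

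Gfap, the gene of an intermediate filament of astrocytes, was itself hardly detected. Whether its level follows the activity of the promoter in the Cre construct was not tested. It lay between 0 and 0.216 TPM in control dorsal libraries (median 0.0501). In mutant dorsal libraries 1 to 4 it was 0.0802, 0.0210, 0.0565 and 0.0464 TPM. Medially it was 1.02, 0.606, 0.180, 0.169 and 0.530 TPM in controls 2 to 6 and 0.223, 0.184, 0.0416 and 0.0192 TPM in mutants 1 to 4. Control and mutant libraries overlapped in both regions, and the gene did not pass the filter on low values. Among mutant medial libraries Gfap was lowest in numbers 3 and 4, the numbers with the most Prm1. Among mutant dorsal libraries it was lowest in number 2, and number 3, with the most Prm1, lay above numbers 2 and 4. At such low levels the order of libraries cannot be read.

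Other genes of the cells in which GFAP promoter transgenes are active in embryonic cortex moved in both directions. Of 17 such radial glia and early astroglia genes, 15 were tested, and 5 rose and 4 fell dorsally, where 9.93% of all tested genes rose and 27.6% fell. Medially 4 rose and 4 fell, where 9.44% of all tested genes rose and 30.2% fell. Their median change was 0.16 dorsally and -0.07 medially, beside -0.10 and -0.11 for all tested genes. After median-ratio rescaling 7 rose and 3 fell dorsally and 4 rose and 4 fell medially, where of all tested genes 15.4% rose and 14.8% fell dorsally and 15.8% rose and 17.3% fell medially. In male embryos only, 4 rose and 1 fell dorsally, beside 6.34% and 14.9% of all tested genes, and 2 rose and 3 fell medially, beside 5.66% and 17.2%. Slc1a3, a glutamate transporter gene of radial glia, was higher by 0.81 ± 0.11 in dorsal and 0.73 ± 0.12 in medial mutant cortex (adjusted p = 3.28e-05 and 0.000126 in limma). Sox2, a transcription factor gene of neural progenitors, rose by 0.40 ± 0.08 and 0.45 ± 0.08 (adjusted p = 0.00100 and 0.000487). Aldoc, a glycolysis gene, fell by 1.08 ± 0.11 and 1.34 ± 0.11 (adjusted p = 6.48e-07 and 1.50e-07). Fabp7, a fatty acid binding protein gene of radial glia, fell by 0.43 ± 0.11 and 0.86 ± 0.12 (adjusted p = 0.00616 and 2.75e-05; 0.0731 dorsally in male embryos only). The summed level of the list ran from 2959 to 3363 TPM in control dorsal and from 2983 to 3148 TPM in mutant dorsal libraries. In medial cortex the sums ran from 3618 to 4584 TPM in controls and from 3410 to 3877 TPM in mutants. These sums overlapped between genotypes in both regions, and their part in the Prm1 level was not tested. In bulk tissue a change in the number of cells of a type and in the RNA per cell cannot be told apart.

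The genes around Prm1 on chromosome 16 did not differ between genotypes to the extent that Prm1 did. Of 16 protein-coding genes within 500 kb, the protamine and transition protein genes left out, 13 were tested. Dorsally 2 rose and 4 fell, beside 9.93% and 27.6% of all tested genes, and medially 2 rose and 3 fell, beside 9.44% and 30.2%. After median-ratio rescaling 4 rose and 1 fell in each region, beside 15.4% and 14.8% of all tested genes dorsally and 15.8% and 17.3% medially. In male embryos only, 2 rose and 1 fell dorsally and 1 rose and 1 fell medially, beside 6.34% and 14.9% of all tested genes dorsally and 5.66% and 17.2% medially. Their median change was 0.01 dorsally and -0.12 medially as deposited. Socs1, an inhibitor of cytokine signalling 10.8 kb away on the side of the other protamine genes, had 1.13 ± 0.413 TPM in control dorsal (SD, n = 6) and 1.20 ± 0.446 TPM in mutant dorsal libraries (n = 4). Its change was 0.05 ± 0.16 dorsally (adjusted p = 0.825 in limma) and -0.20 ± 0.16 medially (adjusted p = 0.354).

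Rmi2, which encodes a subunit of a complex that resolves DNA recombination intermediates, lies 29.2 kb away on the other side (10835059 to 10892966). It had 5.29, 4.36, 5.24, 4.17, 5.35 and 3.47 TPM in control dorsal libraries 1 to 6 and 7.35, 7.12, 9.44 and 8.43 TPM in mutant dorsal libraries 1 to 4. Medially it had 5.97, 5.85, 5.15, 6.95 and 4.26 TPM in controls 2 to 6 and 9.30, 9.88, 10.9 and 10.8 TPM in mutants 1 to 4. The groups did not overlap in either region, and Rmi2 rose by 0.69 ± 0.12 dorsally (adjusted p = 0.000215) and by 0.77 ± 0.12 medially (adjusted p = 0.000109). This was the largest change among the 13 neighbours tested, beside 7.55 and 7.89 for Prm1. Gm11172, a predicted gene 7.1 kb away, and Gm10343, a pseudogene inside the first intron of the longer Prm1 transcript, were listed at 0 in all 19 libraries.

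The remaining near genes changed by less. Nubp1, an iron-sulfur cluster assembly gene, was higher by 0.29 ± 0.05 in dorsal and 0.22 ± 0.05 in medial mutant cortex (adjusted p = 0.000226 and 0.00286; 0.0942 medially in male embryos only). Tvp23a, a Golgi membrane protein gene, fell by 0.31 ± 0.05 and 0.45 ± 0.05 (adjusted p = 0.000158 and 5.46e-06). Dexi fell by 0.21 ± 0.06 and 0.22 ± 0.07 (adjusted p = 0.0135 and 0.0138). Snn, the stannin gene, fell by 0.22 ± 0.07 and 0.23 ± 0.07 (adjusted p = 0.0162 and 0.0163). Litaf, an endosomal protein gene, fell by 0.14 ± 0.05 dorsally (adjusted p = 0.0397) and had a change of 0.02 ± 0.06 medially (adjusted p = 0.847). The difference between the regions in this change of Litaf, 0.16 ± 0.08, did not pass (adjusted p = 1.00 in limma). Clec16a, whose product acts in endosomes and mitophagy, did not pass, at -0.16 ± 0.14 dorsally and -0.16 ± 0.15 medially. The calls of Rmi2 and Tvp23a held under every alternative tried, while that of Litaf was lost in 11 of 27 and those of Dexi and Snn in 4 and 3 of 27 in each region. The losses of Dexi and Snn include median-ratio rescaling and male embryos only. For Dexi they also include leaving out number 2 of the mutant group (adjusted p = 0.0578 dorsally and 0.0617 medially), and for Snn number 3 (0.0886 and 0.0742). For Litaf they were control dorsal number 1 (0.0752), 2 (0.0787) or 6 (0.0703) and mutant dorsal number 2 (0.149) or 4 (0.0776). With the embryo as a block the adjusted p of Litaf was 0.0667.

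**Figure D3:**
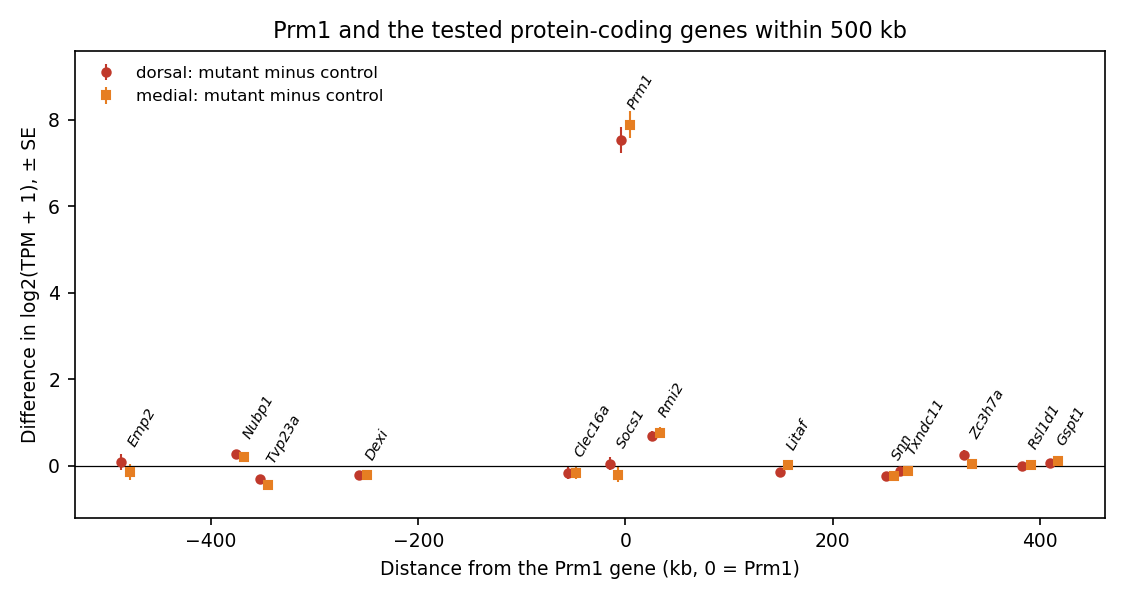
Difference between mutant and control in log2(TPM + 1) ± SE from limma, for Prm1 and the 13 tested protein-coding genes within 500 kb, against distance from Prm1 in kb. Prm1 stands at 7.55 and 7.89, and the largest neighbour change is that of Rmi2 (0.69 and 0.77).

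Other genes of male germ cells did not share the high level of Prm1 in mutant libraries. Of 34 other spermatid genes, 30 stayed below 1 TPM in all 19 libraries and 10 were at 0 in every mutant library, among them Akap4, of the sperm tail sheath, Odf1, of the outer dense fibres, and the germ cell enzyme genes Ldhc and Pgk2. The summed level of the list ran from 19.4 to 24.9 TPM in control dorsal, from 18.5 to 21.9 TPM in mutant dorsal, from 19.2 to 24.5 TPM in control medial and from 18.4 to 22.0 TPM in mutant medial libraries. The groups thus overlapped, and the highest sum in any mutant library was below the lowest Prm1 value of a mutant library. Dnajb3, Tekt1 and Crem were the 3 members that passed the filter. Dnajb3, a heat shock protein family gene, lay between 5.95 and 11.8 TPM in mutant and between 7.19 and 12.2 TPM in control libraries. Tekt1, a gene of cilia and sperm tails, lay between 3.49 and 8.69 TPM in mutant and between 4.27 and 8.35 TPM in control libraries.

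Crem, which encodes a cyclic AMP responsive transcription factor that drives Prm1 in spermatids and is also expressed in other tissues, had 4.50 ± 0.141 TPM in control dorsal (SD, n = 6) and 3.79 ± 0.112 TPM in mutant dorsal libraries (n = 4). It fell by 0.20 ± 0.06 dorsally (adjusted p = 0.0174 in limma), a call that was lost after median-ratio rescaling (0.138), after quantile normalization (0.270), in male embryos only (0.1) and without mutant dorsal number 3 (0.0545). Medially its change was -0.16 ± 0.07 (adjusted p = 0.0583). Of the 3 spermatid genes tested 0 rose in limma in either region, beside 9.93% of all tested genes dorsally and 9.44% medially. A rise at an unadjusted p under 0.05 was seen for 0 of them. Medially 0 fell, beside 30.2% of all tested genes, and 1 did at an unadjusted p under 0.05. With 3 genes tested, such counts cannot be told from these shares.

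In the lists of germ line, testis somatic and sperm chromatin genes 0 members rose in limma. Of all tested genes, 9.93% rose dorsally and 9.44% medially. Only 2, 2 and 7 members of these lists were tested, too few to tell 0 from those shares. At an unadjusted p under 0.05, 1 member rose, Tex15 dorsally. Of 25 germ line and meiosis genes, 21 stayed below 1 TPM throughout, and neither of the 2 tested, Tex15 and Rec8, passed. Tex15, a gene of germ cell DNA repair, had a dorsal change of 0.26 ± 0.11 (adjusted p = 0.0717) and passed in 5 of 26 alternatives. These were median-ratio rescaling (0.0337), quantile normalization (0.0134), the number as a fixed block (0.0203) and leaving out control dorsal number 5 (0.0351) or mutant medial number 3 (0.0408). The summed level of the list ran from 4.09 to 7.19 TPM in control and 3.63 to 6.22 TPM in mutant dorsal libraries, and from 5.22 to 7.38 and 3.53 to 6.82 TPM medially. Of 11 Sertoli and Leydig cell genes 2 were tested, and Inha, the inhibin alpha gene, fell by 0.57 ± 0.17 dorsally and 0.84 ± 0.17 medially (adjusted p = 0.0128 and 0.000993; 0.102 dorsally in male embryos only). The summed level of this list ran from 12.8 to 20.7 TPM in control and 10.02 to 13.2 TPM in mutant dorsal libraries, and from 10.95 to 16.4 and 6.14 to 10.4 TPM medially, so it overlapped dorsally only. Inha made up most of these sums, with 8.85 to 14.4 TPM in control medial and 4.21 to 8.58 TPM in mutant medial libraries. Insl3 and Cyp17a1, of hormone-making testis cells, were at 0 in every mutant library. Of 11 other sperm chromatin genes in the table, 7 were tested, most of them also active outside the testis. In this list 1 member fell dorsally and 3 fell medially, beside 27.6% and 30.2% of all tested genes. After median-ratio rescaling 0 and 2 fell, beside 14.8% and 17.3%. Camk4, a kinase gene of neurons and spermatids, fell by 0.54 ± 0.18 and 0.60 ± 0.18 (adjusted p = 0.0227 and 0.0146; 0.112 and 0.0678 without number 3 of the mutant group). The dorsal call of Camk4 was also lost after median-ratio rescaling (0.0561), after quantile normalization (0.0978) and in male embryos only (0.0927), and the medial one after quantile normalization (0.0921). Chd5, a chromatin remodeller gene of neurons and spermatids, fell by 0.66 ± 0.16 medially (adjusted p = 0.00347). Brdt, a testis bromodomain gene, fell by 0.28 ± 0.11 medially (adjusted p = 0.0476), a call lost in 19 of 26 alternatives, the embryo block among them (0.0583). The linker histone gene H1fnt and the spermatid gene Hils1 did not pass the filter.

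**Figure D4:**
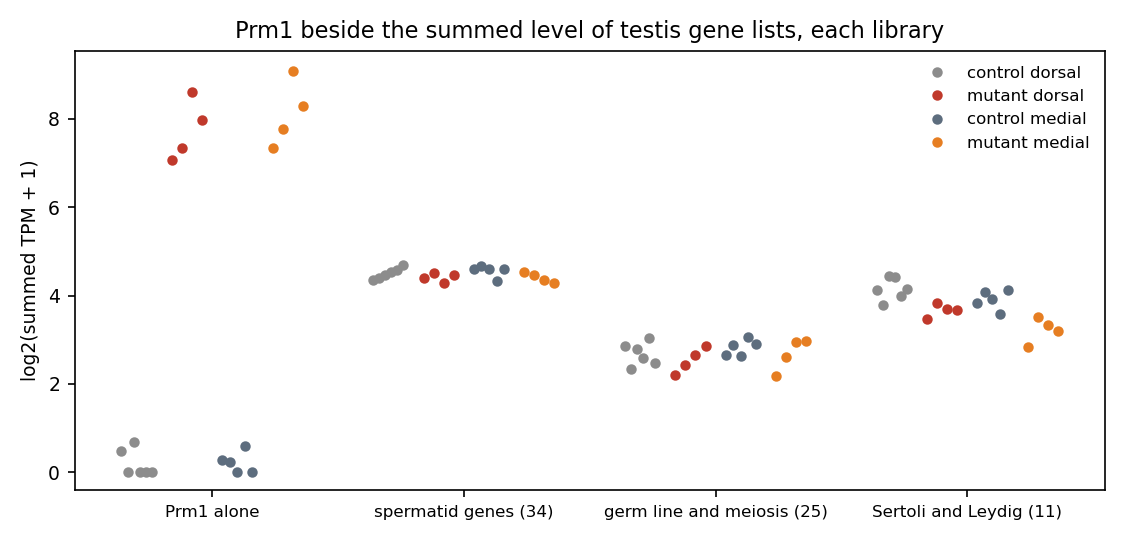
Prm1 level and summed level of 3 lists of testis genes in each library, as log2(summed TPM + 1), with points coloured by group. Prm1 separates the mutant from the control libraries, whereas the sums of spermatid and germ line genes overlap between genotypes in both regions, and the Sertoli and Leydig sums overlap dorsally and lie lower in mutants medially (6.14 to 10.4 against 10.95 to 16.4 TPM), most of it from the single gene Inha.

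Among all 47643 genes Prm1 was the only one below 1 TPM in every control library and at or above 10 TPM in every mutant library. At a mutant level of at least 5 TPM, Hhip, which encodes a Hedgehog-binding protein, joined it. The genes most like Prm1 over all 19 libraries, by Pearson's r of log2(TPM + 1) among 12216 tested genes with established names, were Gli1 (r = 0.995), Fgf15 (0.991), Steap4 (0.986), Ptch1 (0.985) and Doc2a (0.981), and 231 genes reached 0.9. These libraries fall into 2 genotypes, and the group means of all 5 genes were higher in mutants in both regions.

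Over the 8 mutant libraries, which come from 4 embryos with 2 libraries each, other genes were most like Prm1. They were Sec24b (r = 0.982), Uggt2 (0.982), Tra2b (0.980), Aen (0.980) and Snhg17 (0.979), and 355 genes reached 0.9 beside a median of 0.08 over all. Sec24b encodes a coat protein of transport vesicles, Tra2b a splicing factor and Aen a nuclease, and Snhg17 is a host gene of small nucleolar RNAs. None of the 5 genes most like Prm1 over all libraries was among the 5 over the mutant libraries. Sec24b had 9.96 ± 0.970 TPM in mutant dorsal and 10.6 ± 1.21 TPM in mutant medial libraries (SD, n = 4 each), beside 11.2 ± 2.16 (n = 6) and 11.4 ± 1.17 TPM (n = 5) in the controls. Its highest mutant library in a region was thus much closer to its lowest than was the case for Prm1.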

How the data were processed

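Per the labels' protocols, cortical RNA was isolated by RNeasy Micro Kit and sequenced as TruSeq Stranded Total RNA libraries. The deposited table holds the authors' TPM values, 1 column for each library, on genome build mm10 per the submitters' processing notes. Aligner, quantifier, annotation release and strand setting: not given in the sources used here. TPM keeps no depth, so no counting error can be given. Libraries were grouped by title.

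The 13520 genes that reached 1 TPM in 4 or more libraries were fitted on log2(TPM + 1) using limma 3.58.1 under R 4.3.3 (statmod 1.5.0 for robust moderation), with 1 mean per group over all 19 libraries, trend and robust moderation, and Benjamini-Hochberg adjustment over all tested genes at 0.05. Comparisons were mutant against control in each region and medial against dorsal in each genotype, and the mutant against control comparisons of both regions and the regional ones share libraries. The test was tried on simulated data with independent libraries. These data left out the pairing within embryos, so the trial does not bear on the comparisons between regions. Within a genotype, the dorsal and the medial library of a number deviated together from their group means (9 pairs, r from 0.549 to 0.795), so the number was taken as the embryo. Across genotypes r ran from -0.436 to 0.138 in 7 pairs.

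The members and gene lists were chosen with earlier results of these data known. Named genes are the members, Smo, Gli1, Gfap, the 3 nearest protein-coding genes on each side of Prm1 (other members left out), up to 4 called or 2 most abundant members per list, genes below 1 TPM in all controls and at least 10 TPM in all mutants, and the 5 most like Prm1; Hhip, Nubp1, Tvp23a, Snn and list members at 0 were named after their values were seen. Sequences came from GENCODE M21 transcripts and RefSeq promoter windows (Python 3.11.15). Alternatives were the pseudocount, the filter, scaling, embryo or number as a replicate block, male embryos only and leaving out each library. Plots used matplotlib 3.10.9.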

Additional observations from a re-analysis of the deposited data

Results flagged for a closer look

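Prm2 was listed at 0.0945 TPM in mutant dorsal number 1 and at 0 in the other 3 mutant dorsal libraries, so that library stands apart from its group by the whole range. Dixon's test at the 95% level marks about 1 in 20 groups by chance, and with 3 values tied at 0 any value above 0 is marked. The Prm1 level of the same library, 132 TPM, was the lowest of the mutant dorsal group.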

How the results depend on the processing

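The mutant minus control difference in Prm1 moved only with the pseudocount, to 10.20 dorsally and 10.28 medially with 0.1 added in place of 1. Leaving out 1 library at a time gave 7.26 to 7.77 dorsally and 7.57 to 8.15 medially. The medial minus dorsal difference in mutants ran from 0.06 to 0.66 in these fits, with adjusted p from 0.136 to 0.938 over the limma alternatives, and passed in none. With the embryo as a random replicate block it was 0.38. The extremes came from leaving out number 3, the highest embryo, in the medial group (0.06) or the dorsal group (0.66) only. Such fits break the pairing, so this range does not describe the difference within embryos, which was 0.28 to 0.49. In controls, where Prm1 was listed at 0 to 0.603 TPM, the values were 0.03, -0.046 with the number as a fixed replicate block and -0.06 to 0.13 without 1 library; at such levels neither their size nor their sign can be read. The count of called genes within 500 kb of Prm1, 6 dorsally and 5 medially, fell to 3 and 2 in male embryos only and ran from 4 to 7 and from 4 to 6 without 1 library. Calls over all tested genes fell as well in male embryos only. Dorsally 9.93% rose and 27.6% fell in the main fit, and 6.34% and 14.9% in male embryos only. Medially these shares were 9.44% and 30.2% in the main fit, and 5.66% and 17.2% in male embryos only. Called spermatid genes, 1 dorsally and 0 medially, became 2 and 1 without a filter on low values, and dorsally 0 when 5 TPM in 4 or more libraries were required, after median-ratio rescaling, after quantile normalization and in male embryos only. Without 1 library this count ran from 0 to 1 in both regions, with 0 dorsally without mutant dorsal number 3 and 1 medially without control medial number 5. With 3 spermatid genes tested in the main fit, such counts cannot be told from the shares over all tested genes. Of the genes named, the calls of Litaf dorsally and Brdt medially were lost with the embryo as a replicate block (adjusted p = 0.0667 and 0.0583), and with the number as a fixed block Tex15 passed dorsally (0.0203); in the mutant against control comparisons the block changed no other call of a gene named. The causes of these changes were not tested. The unknown depth limits what a value below 1 TPM, or a listed 0, can show.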

Other observations

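The 12 abundant genes that, like Prm1, had an SD of at least that share of the mean between mutant libraries in both regions were Scg5, Rpl29, Hba-a2, Tpm3-rs7, Rps18-ps3, Pcna-ps2, Gm15501, Gm8730, Gm6311, Gm10260, Gm4737 and Gm10184. They were named after their values were seen. Hba-a2 encodes an alpha globin of red blood cells, and several of the others are named as pseudogenes or predicted genes. Whether reads shared with near-identical copies bear on their values was not tested.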
